A study of Homo sapiens with 6 samples.

Results

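Short hairpin RNAs of different sequence against the same transcript were compared with each other in OCI-AML2, a human cell line established from acute myeloid leukaemia. The target was TAZ, the gene of tafazzin. The members are the 4 libraries of the series' 6 that carry a TAZ hairpin: 2 of TAZ shRNA1 and 2 of TAZ shRNA2, each pair lettered A and B. The remaining 2 libraries, of cells with a control hairpin that the labels call scramble and the control columns of the deposited tables call GFP, serve as a reference level beside each value. All 3 groups were infected with lentivirus, selected in puromycin and profiled by RNA sequencing of total RNA, so hairpin delivery and selection are common to them. The labels describe the line as an engineered leukemic stem cell line. Whether A and B were grown as separate cultures is not stated. Each p-value therefore reflects only how much the 2 libraries within groups vary, possibly for technical reasons. That spread was estimated over all 3 groups, the control pair included, with information shared across genes.

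Tafazzin sits on mitochondrial membranes and moves acyl chains between phospholipids, which gives cardiolipin, the signature lipid of the inner membrane, its mature set of acyl chains. A hairpin RNA is cut by Dicer and loaded onto an Argonaute protein, which then lowers transcripts that pair with the guide strand. Transcripts other than the intended one can be lowered through short matches, and the series describes the 2 hairpins as independent, so genes that differ between them can reflect the depth of the knockdown or the hairpin itself. These possibilities cannot be told apart in this design.

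Reads in listed genes numbered 18810789 in the shallowest library and 20956661 in the deepest. Libraries A and B correlated across genes (which do not count as replicates) at r = 0.994 with shRNA1, 0.990 with shRNA2 and 0.986 in the control. Of 10 myeloid markers 9 were listed, with a summed level between 1100 and 5820 RPKM (reads adjusted for gene length and sequencing depth) in each library. Most of that sum was LYZ, lysozyme, at 5240 and 4740 RPKM with shRNA1, 4220 and 3490 RPKM with shRNA2 and 786 and 676 RPKM in the control. Markers of other cell types were not listed or low beside that sum: the 7 erythroid and the 8 stromal and epithelial markers were not listed, and the 7 T-cell markers had only CD3D, at most 0.981 RPKM. The B-cell markers summed to between 1.31 and 5.00 RPKM, most of it CD79B, and the megakaryocyte markers to between 1.82 and 6.16 RPKM, most of it GP9.

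Both shRNA2 libraries had less TAZ than either shRNA1 library. It measured 4.02 and 4.10 RPKM with shRNA1 (159 and 166 reads) and 1.47 and 2.13 RPKM with shRNA2 (55 and 82 reads), against 11.3 and 11.9 RPKM in the control libraries. The 3 groups did not overlap, and the shRNA2 libraries were the lowest. The difference between the hairpins was -1.0 on the log2(RPKM + 0.5) scale (SE 0.16), a description without a test, since shRNA2 was set against shRNA1 for its deeper fall of TAZ. On that scale the fall from the control was -1.41 with shRNA1 and -2.41 with shRNA2. An exact permutation test of 2 libraries against 2 cannot go below p = 0.333, so single genes were judged by limma, which was fitted across all genes and all 6 libraries. Without shRNA1 A the TAZ difference was -1.01 and without shRNA1 B it was -0.99.

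Of 10660 genes whose mean reached 1 RPKM over the 6 libraries, 1160 differed between the hairpins at a Benjamini-Hochberg adjusted p under 0.05 (10.9% of those tested), and such genes are referred to as called. With shRNA2, 510 were higher (4.78%) and 650 lower (6.1%). The counts of called genes in each list below are to be read beside these shares. An unadjusted p under 0.05 in limma, in either direction, was found for 2802 of the 10660 genes. Counts by unadjusted p in each list are to be read beside that share, which is far above the 10.9% called. At least 2-fold differences were found in 142 of the higher genes (1.33% of genes tested) and 143 of the lower ones (1.34%). For 298 of the 510 higher genes (58.4%) and 351 of the 650 lower genes (54.0%), the control mean lay between the 2 hairpin means, as it did for 2724 of all 10660 genes (25.6%). Selecting genes by a large gap between the hairpins favours that order, so these shares are a description. The mean lay farther from the control with shRNA2 than with shRNA1, on the same side, for 142 higher (27.8%) and 186 lower genes (28.6%). TAZ itself shows this order, as did 40.3% of all genes tested, a larger share. In 70 higher (13.7%) and 113 lower genes (17.4%) the shRNA1 mean lay farther out, against 34.2% of all genes tested. The count of called genes rested on every hairpin library: it was 217 without shRNA1 A, 162 without shRNA1 B, 439 without shRNA2 A and 458 without shRNA2 B.

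**Figure D1:**
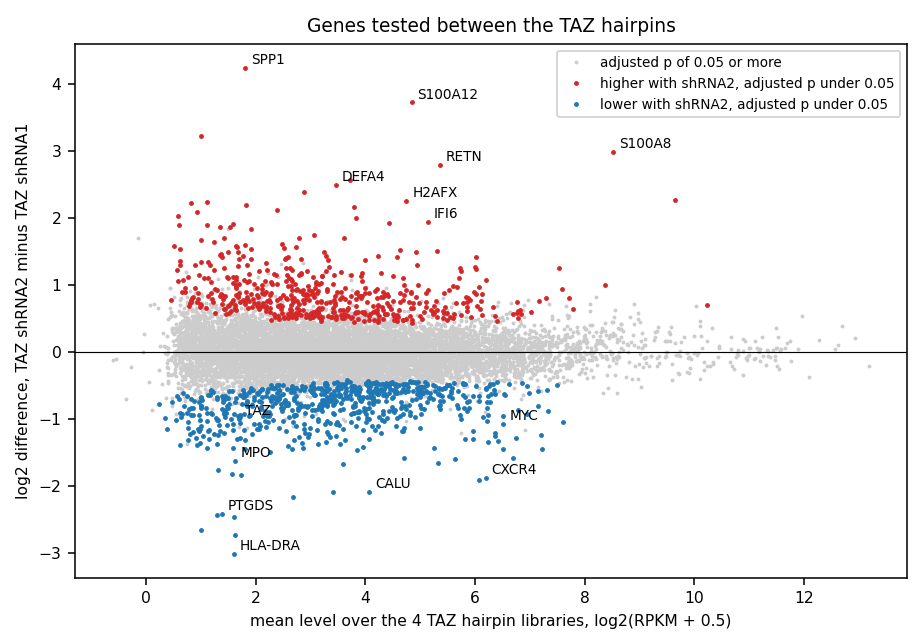
Each point is one of 10660 genes; the horizontal axis is the mean level over the 4 TAZ hairpin libraries as log2(RPKM + 0.5) and the vertical axis is the log2 difference, shRNA2 minus shRNA1, with the 510 genes called higher in red and the 650 called lower in blue. SPP1 is the highest point at 4.24, HLA-DRA the lowest at -3.02, and S100A8 combines a high level with a difference of 2.98.

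The genes most above shRNA1 with shRNA2 included secreted and surface products of monocytes and neutrophils. SPP1, which encodes the secreted phosphoprotein osteopontin, measured 0.348 and 0.261 RPKM with shRNA1 and 20.1 and 10.6 RPKM with shRNA2, against 2.96 and 0.680 RPKM in the control. S100A12, a calcium-binding alarmin of granulocytes, measured 8.64 and 6.30 RPKM with shRNA1 and 106 and 101 RPKM with shRNA2, against 18.4 and 9.0 RPKM in the control. For both genes the shRNA2 libraries stood above all others, while the shRNA1 pair lay below both control libraries. The log2 differences were 4.24 (SE 0.46, adjusted p = 0.00155) for SPP1 and 3.72 (SE 0.28, adjusted p = 0.000905) for S100A12. The shRNA1 level of SPP1 rests on 13 and 10 reads.

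Several of these genes were lowered by shRNA1 and not by shRNA2. S100A8, which pairs with S100A9 to form calprotectin, measured 141 and 120 RPKM with shRNA1, 1300 and 815 RPKM with shRNA2, and 831 and 429 RPKM in the control. DEFA4, a defensin of neutrophil granules, measured 4.21 and 4.11 RPKM with shRNA1, 30.3 and 21.8 RPKM with shRNA2, and 41.5 and 25.6 RPKM in the control. H2AFX, the histone variant phosphorylated at DNA breaks, measured 12.7 and 11 RPKM with shRNA1, 67.9 and 49.7 RPKM with shRNA2, and 74.7 and 64.9 RPKM in the control. In each of these genes the shRNA1 pair was the lowest, and the shRNA2 and control libraries overlapped or lay close together. The log2 differences between hairpins were 2.98 (SE 0.32), 2.49 (SE 0.23) and 2.25 (SE 0.17), with adjusted p between 0.000905 and 0.00154. RETN, the secreted factor resistin, had the same order, with 17.1 and 13.3 RPKM with shRNA1, 131 and 87.1 RPKM with shRNA2, and 81.5 and 60.8 RPKM in the control.

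The other higher genes of the leading 15 were PINLYP, CCL2, IFI27, S100A9, COL24A1, MMP8, FPR2, PKIB and CD14, with log2 differences between 2.12 and 3.21. CCL2, the chemokine that draws monocytes, measured 5.65 and 4.25 RPKM with shRNA1 and 39.9 and 24.8 RPKM with shRNA2, against 9.95 and 6.67 RPKM in the control. CD14, the monocyte co-receptor for bacterial lipopolysaccharide, measured 2.44 and 1.61 RPKM with shRNA1 and 13.4 and 7.97 RPKM with shRNA2, against 2.34 and 1.17 RPKM in the control. Both genes were highest in the shRNA2 pair. PINLYP, COL24A1 and MMP8 were under 1 RPKM in every control and shRNA1 library, and passed the filter only through shRNA2. Of the 15 genes, 12 were called without each library in turn. S100A9 (adjusted p = 0.0536) and CD14 (0.0613) were not called without shRNA1 B, and PKIB was not called without shRNA1 A (0.0559), shRNA1 B (0.0651) or shRNA2 A (0.0535). Short genes were frequent among the 15: 8 (53.3%) had an implied length under 1000 bases, against 7.34% of genes tested. With the trend of the difference on gene length removed, the S100A12 difference was 3.55, that of SPP1 4.21 and that of S100A8 2.82.

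**Figure D2:**
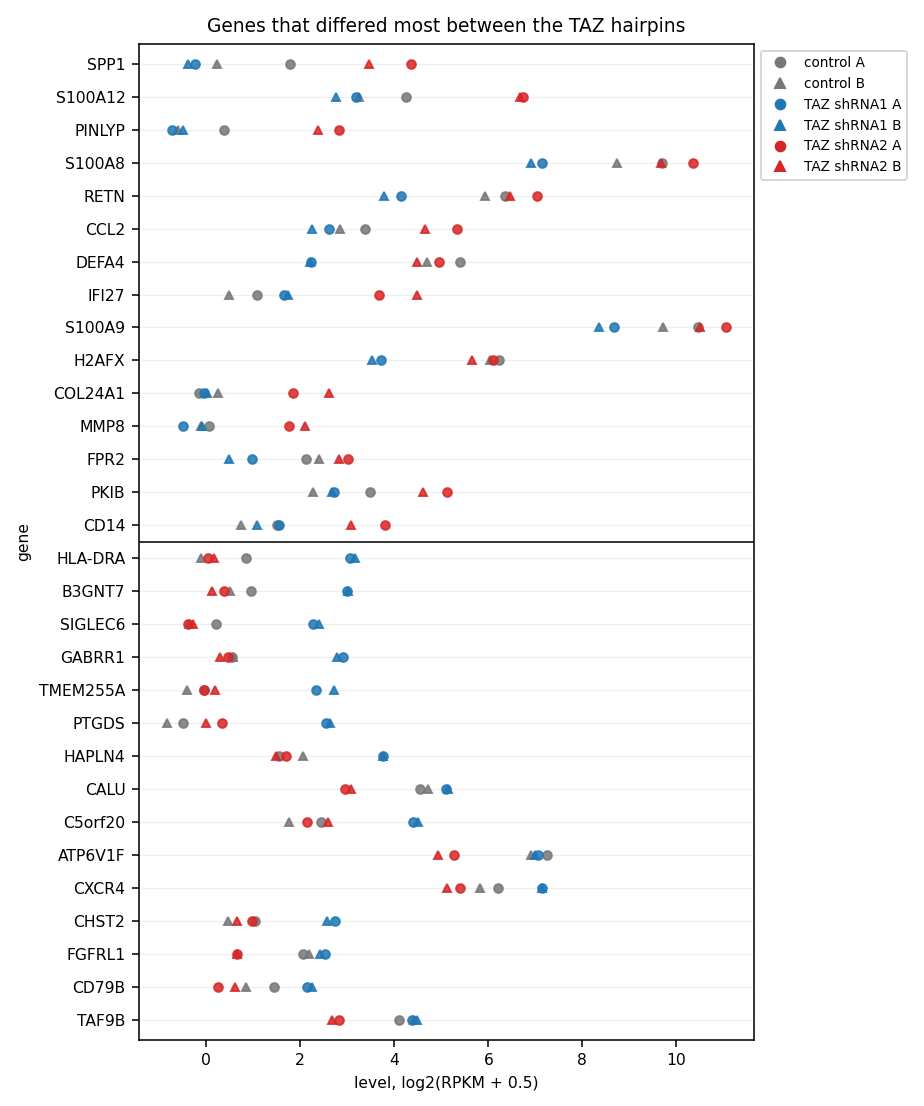
Levels as log2(RPKM + 0.5) in the 6 libraries of the 15 genes most above (upper block) and the 15 most below (lower block) shRNA1 with shRNA2; circles are library A and triangles library B. In the lower block HLA-DRA, SIGLEC6 and GABRR1 have the shRNA1 pair alone to the right, while CALU, ATP6V1F and TAF9B have the shRNA2 pair alone to the left.

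Genes most below shRNA1 with shRNA2 mostly fell into 2 arrangements around the control. In the first, shRNA1 was above the control and shRNA2 close to it. HLA-DRA, the alpha chain of MHC class II HLA-DR, measured 7.82 and 8.49 RPKM with shRNA1 and 0.521 and 0.620 RPKM with shRNA2, against 1.31 and 0.423 RPKM in the control. GABRR1, a subunit of GABA-gated chloride channels, measured 7.0 and 6.33 RPKM with shRNA1 and 0.883 and 0.717 RPKM with shRNA2, against 0.959 and 0.983 RPKM in the control. Their log2 differences were -3.02 (SE 0.28, adjusted p = 0.00108) and -2.46 (SE 0.16, adjusted p = 0.000883), and their shRNA1 pairs stood apart from the other 4 libraries. B3GNT7, SIGLEC6, TMEM255A, HAPLN4, C5orf20 and CHST2 had this order as well, with log2 differences between -2.74 and -1.84. PTGDS, a prostaglandin D synthase, was graded instead, at 0.207 and 0.0607 RPKM in the control, 0.76 and 0.49 RPKM with shRNA2 and 5.32 and 5.72 RPKM with shRNA1. HLA-DRA, GABRR1, B3GNT7, SIGLEC6, TMEM255A and PTGDS averaged under 1 RPKM in the control and shRNA2 libraries, so they passed the filter on low values only through shRNA1.

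In the second arrangement shRNA2 was below the control and shRNA1 was level with it or somewhat above. CALU, which encodes calumenin, a calcium-binding protein of the secretory pathway, measured 33.8 and 34.7 RPKM with shRNA1, 7.29 and 8.01 RPKM with shRNA2, and 22.8 and 25.7 RPKM in the control. ATP6V1F, a subunit of the vacuolar proton pump, measured 132 and 127 RPKM with shRNA1, 38.3 and 30.2 RPKM with shRNA2, and 151 and 120 RPKM in the control. TAF9B, a subunit of the general transcription machinery, measured 20.3 and 21.8 RPKM with shRNA1, 6.56 and 5.85 RPKM with shRNA2, and 16.6 and 20.8 RPKM in the control. The shRNA2 libraries were the lowest for all 3 genes, with log2 differences of -2.09 (SE 0.12), -1.91 (SE 0.16) and -1.68 (SE 0.14) and adjusted p between 0.00072 and 0.000905. FGFRL1, a receptor of the fibroblast growth factor family, measured 5.28 and 4.89 RPKM with shRNA1 and 1.07 RPKM in each shRNA2 library. CXCR4, the chemokine receptor that holds leukaemic cells in the marrow niche, differed in both ways: 140 and 141 RPKM with shRNA1, 41.6 and 34.2 RPKM with shRNA2, and 72.9 and 55.7 RPKM in the control. Its log2 difference was -1.88 (SE 0.16, adjusted p = 0.000905). CD79B, a B-cell receptor chain, measured 3.91 and 4.27 RPKM with shRNA1, 0.692 and 1.02 RPKM with shRNA2 and 2.21 and 1.29 RPKM in the control. All 15 genes were called without each library in turn.

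Interferon stimulated genes that limma called were higher with shRNA2. Type I interferon acts through a transcription factor complex with IRF9 that binds response elements in the promoters of these antiviral genes. Of 42 tested, 17 were higher with shRNA2 than with shRNA1, 0 were lower and 25 did not pass, while 4.78% of all genes tested were called higher. Of the 17, 4 passed the filter on low values only through shRNA2, and with the filter at 5 RPKM the list had 8 higher and 1 lower. An unadjusted p under 0.05 was found for 21 higher and 2 lower genes, and limma-voom on recovered reads called 18 higher and 1 lower. The median log2 difference was 0.47 over the 42 genes, against -0.01 over all genes tested. The repeated element that interferon response elements share is GAAANNGAAA, and the 250 bases before the start site of 4 of the called genes are shown because each holds it. Matches on either strand are in capitals, so a reverse-strand match reads TTTCNNTTTC, and matches may overlap. Sequences run 5′ to 3′ on the gene's strand and are from RefSeq on GRCh38.p14, a different build from the hg19 of the expression tables.
IFI27: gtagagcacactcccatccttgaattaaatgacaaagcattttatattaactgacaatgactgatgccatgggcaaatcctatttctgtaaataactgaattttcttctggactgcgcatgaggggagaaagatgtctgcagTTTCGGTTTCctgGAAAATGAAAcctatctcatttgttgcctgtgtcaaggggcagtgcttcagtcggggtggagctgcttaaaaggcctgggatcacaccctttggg
IFI6: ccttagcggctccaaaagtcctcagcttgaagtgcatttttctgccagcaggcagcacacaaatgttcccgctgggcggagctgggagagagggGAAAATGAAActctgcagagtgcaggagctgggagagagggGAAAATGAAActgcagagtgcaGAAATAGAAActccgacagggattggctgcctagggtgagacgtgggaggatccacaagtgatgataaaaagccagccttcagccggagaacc
ISG15: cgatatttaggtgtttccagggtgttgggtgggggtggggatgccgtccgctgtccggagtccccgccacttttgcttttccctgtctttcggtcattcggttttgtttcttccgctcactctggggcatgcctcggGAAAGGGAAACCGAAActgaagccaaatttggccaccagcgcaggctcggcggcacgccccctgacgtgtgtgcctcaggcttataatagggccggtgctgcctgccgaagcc
IFIT1: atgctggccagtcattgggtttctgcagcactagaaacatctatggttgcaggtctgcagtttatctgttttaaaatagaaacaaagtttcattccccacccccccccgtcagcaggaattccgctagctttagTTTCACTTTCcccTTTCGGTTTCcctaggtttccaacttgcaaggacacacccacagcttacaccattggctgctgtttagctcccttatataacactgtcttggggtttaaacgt
The windows are chr14:94110486-94110735, plus strand, for IFI27, chr1:27672193-27672442, minus strand, for IFI6, chr1:1013247-1013496, plus strand, for ISG15, and chr10:89392373-89392622, plus strand, for IFIT1. The first bases of the matches lie at -108 and -95 in IFI27, at -156, -115 and -93 in IFI6, at -113 and -107 in ISG15 and at -116 and -103 in IFIT1, counted from the start site.

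Promoter windows of 300 bases, from 250 before to 50 after the start site, were at hand for 33 of the 42 genes, and 19 of these (57.6%) held the element, against 3.65% of all 27305 promoters in the table. It was present in 12 of 16 promoters of called interferon genes (75.0%) and in 7 of 17 of those not called (41.2%). The 12 include LGALS3BP, IFIT1, IFITM1 and MX1, which passed the filter only through shRNA2. The shares of called and not called genes are therefore a description and not a comparison. Over all genes called higher with shRNA2 it was present in 25 of 400 promoters (6.25%), a count that includes the 12 of called interferon genes. Over genes called lower it was present in 2.35% of promoters, and over genes tested in 2.94%. A match describes these letters only.

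IFI6, an antiviral membrane protein, measured 17.0 and 18.0 RPKM with shRNA1 and 68.8 and 68.2 RPKM with shRNA2, against 15.5 and 9.64 RPKM in the control. IFI27, a small membrane protein, measured 2.63 and 2.83 RPKM with shRNA1 and 12.2 and 21.9 RPKM with shRNA2, against 1.63 and 0.891 RPKM in the control. ISG15, a ubiquitin-like modifier, measured 4.66 and 5.69 RPKM with shRNA1 and 14.3 and 16.4 RPKM with shRNA2, against 11.1 and 6.15 RPKM in the control. The shRNA2 pair was the highest for all 3 genes, while shRNA1 was above the control for IFI6 and IFI27 and below it for ISG15. Log2 differences were 1.94 (SE 0.20, adjusted p = 0.00136) for IFI6, 2.39 (SE 0.28, adjusted p = 0.00228) for IFI27 and 1.48 (SE 0.24, adjusted p = 0.0079) for ISG15. LGALS3BP, a secreted glycoprotein, had 2.09 (SE 0.19, adjusted p = 0.00102), and IFITM3, which blocks virus entry and has close paralogs, 1.56 (SE 0.16, adjusted p = 0.00149). IRF7 and IRF9, transcription factors of the pathway, had 1.33 (SE 0.20) and 1.10 (SE 0.24), with adjusted p of 0.00567 and 0.0235. OAS1, the sensor of double-stranded RNA that makes oligoadenylate, was graded, at 0.504 and 0.564 RPKM in the control, 1.55 and 2.65 RPKM with shRNA1 and 4.18 and 5.51 RPKM with shRNA2. The number of list members called higher was 4 without shRNA1 A, 6 without shRNA1 B, 12 without shRNA2 A and 7 without shRNA2 B. IFI6, IFITM3 and IFI27 were called in each of these 4 runs, and for every other called member but LGALS3BP the highest adjusted p over them lay between 0.0605 (IFIT1) and 0.295 (MX1). LGALS3BP, IFIT1, IFITM1 and MX1 averaged under 1 RPKM in the control and shRNA1 libraries and passed the filter only through shRNA2.

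**Figure D3:**
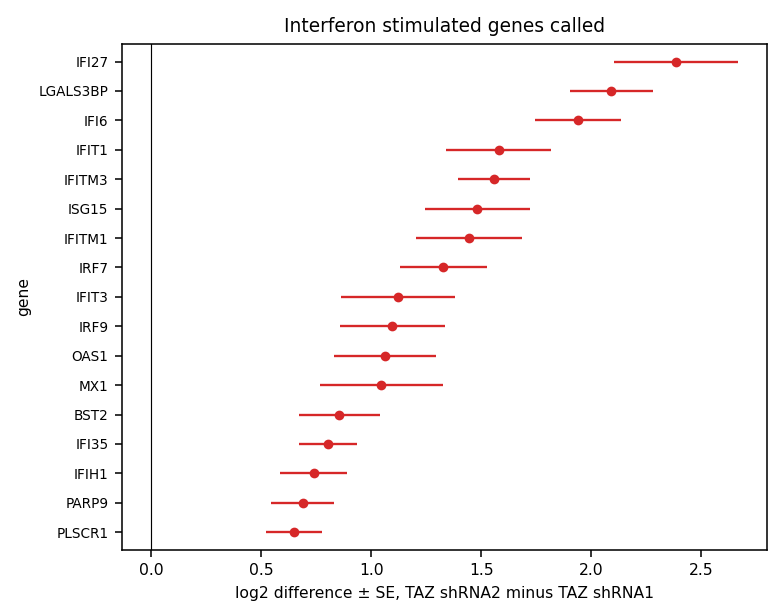
Log2 difference, shRNA2 minus shRNA1, with its SE for the 17 interferon stimulated genes called, of 42 tested. The called genes lie to the right of 0, from PLSCR1 at 0.65 to IFI27 at 2.39.

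Of 14 genes of calcium-binding S100 proteins and annexins 4 were higher with shRNA2 and 2 lower, with a median of 0.50 (0.20 without shRNA2 A and 0.76 without shRNA2 B). S100A9 measured 405 and 328 RPKM with shRNA1, 2120 and 1440 RPKM with shRNA2 and 1410 and 838 RPKM in the control, a log2 difference of 2.26 (SE 0.29, adjusted p = 0.00306). The fourth higher gene, after S100A12, S100A8 and S100A9, was ANXA5, at 0.80. ANXA6, an annexin of endosomal and plasma membranes, was lower by -1.3 (SE 0.13, adjusted p = 0.00139), at 96.7 and 98.1 RPKM with shRNA1 and 40.3 and 38.3 RPKM with shRNA2, against 38.0 and 30.9 RPKM in the control. Calls in this list numbered 4, 3, 4 and 5 without shRNA1 A, shRNA1 B, shRNA2 A and shRNA2 B. ANXA5 and ANXA4 lost theirs in at least one run, with adjusted p up to 0.138 and 0.368.

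Neutrophil granule genes differed in both directions. Of 18 tested, 4 were higher with shRNA2 (DEFA4, MMP8, RNASE3 and MMP9) and 5 lower (MMP25, MPO, ELANE, PRTN3 and PRG2), and the median was 0.18 (-0.01 without shRNA2 A). MPO, the myeloperoxidase of primary granules, measured 5.16 and 4.63 RPKM with shRNA1 and 1.02 and 1.49 RPKM with shRNA2, against 11.2 and 10.1 RPKM in the control. ELANE, neutrophil elastase of the same granules, measured 154 and 118 RPKM with shRNA1 and 63.1 and 44.7 RPKM with shRNA2, against 39.7 and 25.2 RPKM in the control. MPO thus fell with each hairpin and further with shRNA2, while ELANE was highest with shRNA1. The differences were -1.63 (SE 0.17, adjusted p = 0.00137) for MPO and -1.34 (SE 0.25, adjusted p = 0.0124) for ELANE. MMP25, a membrane-bound metalloprotease, was at 13.6 RPKM in both shRNA1 libraries and at 4.79 and 5.05 RPKM with shRNA2, a difference of -1.38 (SE 0.12, adjusted p = 0.000905). MMP8, the collagenase of secondary granules, measured 0.206 and 0.434 RPKM with shRNA1 and 2.88 and 3.78 RPKM with shRNA2. DEFA4, MMP8, MMP25 and MPO were called without each library, and the other 5 reached adjusted p between 0.0738 and 0.218 without 1 hairpin library. These are bulk libraries, in which a change in the share of cells making a transcript and a change in RNA per cell cannot be told apart.

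Monocyte and macrophage genes also split, with 7 of 30 tested higher, 5 lower and a median of 0.09 (-0.03 without shRNA2 A and -0.13 with a filter at 5 RPKM). ITGB2, the beta chain of leukocyte integrins, was higher by 1.42 (SE 0.15, adjusted p = 0.00155), at 40.2 and 37.9 RPKM with shRNA1, 111 and 100 RPKM with shRNA2 and 48.9 and 36.8 RPKM in the control. FCN1, a monocyte lectin, was higher by 1.46 (SE 0.18, adjusted p = 0.00282), and SERPINB2, a plasminogen activator inhibitor of monocytes, by 1.16 (SE 0.14, adjusted p = 0.00262). CD36, a scavenger receptor, was graded at 0.792 and 1.04 RPKM in the control, 3.11 and 2.80 RPKM with shRNA1 and 6.88 and 6.06 RPKM with shRNA2. The lower genes were CXCR4, FCGR2A, TREM1, CD4 and CSF1R. CSF1R, the receptor for the macrophage growth factor, measured 10.1 and 11.1 RPKM with shRNA1 and 5.11 and 6.01 RPKM with shRNA2, against 4.02 and 2.16 RPKM in the control, a difference of -0.87 (SE 0.23, adjusted p = 0.046). Its adjusted p rose above 0.05 under several other settings and reached 0.255 without 1 hairpin library. Higher and lower calls numbered 4 and 1 without shRNA1 A, 3 and 1 without shRNA1 B, 5 and 2 without shRNA2 A and 7 and 1 without shRNA2 B.

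Receptors that sense bacterial products and lipids followed the same mixed pattern. FPR2 and FPR1, which bind formylated bacterial peptides, were higher by 2.19 (SE 0.20, adjusted p = 0.00102) and 2.03 (SE 0.19, adjusted p = 0.00108). FPR1 passed the filter on low values only through shRNA2. FPR2 measured 1.47 and 0.895 RPKM with shRNA1, 7.62 and 6.56 RPKM with shRNA2 and 3.84 and 4.76 RPKM in the control, so that shRNA1 was the lowest group and shRNA2 the highest. PTGER2, a prostaglandin E2 receptor, was lower by -0.92 (SE 0.13, adjusted p = 0.00397). In all, 4 of 18 chemoattractant and lipid receptors were higher and 4 lower, with a median of -0.12 (0.08 with no filter). Calls without shRNA1 A, shRNA1 B, shRNA2 A and shRNA2 B numbered 2, 3, 3 and 5. In the Toll-like receptor pathway 4 of 24 were higher (CD14, IRF7, TLR1 and TOLLIP) and 2 lower, with a median of 0.14. LY86, the secreted partner of the Toll-like protein CD180, was lower by -1.26 (SE 0.16, adjusted p = 0.00318), at 127 and 129 RPKM with shRNA1, 57.1 and 49.2 RPKM with shRNA2 and 56.8 and 41.9 RPKM in the control. TLR9, the receptor for unmethylated DNA, was lower by -1.02 (SE 0.19, adjusted p = 0.0123), and 0.128 was its highest adjusted p with 1 hairpin library left out; it passed the filter only through shRNA1. Calls in that pathway numbered 2, 2, 3 and 4 in the same 4 runs.

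Antigen presentation genes were counted by class. In MHC class II, 3 of 11 genes tested were lower with shRNA2 (HLA-DRA, HLA-DRB1 and HLA-DMA), 0 were higher and the median was -0.55. HLA-DRA and HLA-DRB1 passed the filter only through shRNA1, and with the filter at 5 RPKM the list had 1 lower and a median of -0.26. HLA-DRB1 measured 2.79 and 2.41 RPKM with shRNA1 and 1.01 and 0.409 RPKM with shRNA2, against 0.551 and 0.446 RPKM in the control, a difference of -1.40 (SE 0.25, adjusted p = 0.0117). Unadjusted p was under 0.05 for 6 lower genes and 1 higher, and limma-voom called 3 lower and 1 higher. Without a hairpin library HLA-DRB1 and HLA-DMA reached adjusted p of 0.114 and 0.261. In MHC class I, limma called 0 of 18 genes, and 6 higher and 0 lower genes had an unadjusted p under 0.05. limma-voom called 1 higher, and with the trend on gene length removed limma called 6 higher, against 822 higher of all 10660 genes tested. The median was 0.19. HLA-E, at 173 and 176 RPKM with shRNA1 and 275 and 232 RPKM with shRNA2, had a difference of 0.53 (SE 0.14, adjusted p = 0.0504). HLA transcripts are similar in sequence, and how reads were shared among them is not given. Among 27 myeloid transcription factors KLF4 was higher and TFEC and IRF8 lower. IRF8, a regulator of monocyte and dendritic cell fate, measured 229 and 208 RPKM with shRNA1, 133 and 104 RPKM with shRNA2 and 129 and 93.7 RPKM in the control, a difference of -0.89 (SE 0.19, adjusted p = 0.0218, up to 0.167 without 1 library).

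Cytokine and immediate early genes were called mostly higher with shRNA2 than with shRNA1. Against the control, which both values share, the cytokine median was -1.06 with shRNA1 and -0.21 with shRNA2. For immediate early genes the median against the control was -0.7 with shRNA1 and -0.1 with shRNA2. Of 20 cytokine and chemokine genes 7 were higher and 1 lower (VEGFA), with a median of 0.52. TNF, the inflammatory cytokine, measured 8.74 and 8.26 RPKM with shRNA1, 19.9 and 18.9 RPKM with shRNA2 and 32.5 and 36.8 RPKM in the control. The groups did not overlap, and TNF was lowest with shRNA1, with a difference between hairpins of 1.14 (SE 0.12, adjusted p = 0.00154). VEGFA, the vascular growth factor, was graded the other way, at 12.4 and 22.1 RPKM in the control, 5.42 and 4.93 RPKM with shRNA1 and 2.16 and 2.18 RPKM with shRNA2, a difference of -1.09 (SE 0.23, adjusted p = 0.0228). Of 24 immediate early genes, the first transcripts induced by growth signals, 6 were higher (KLF4, FOSB, FOS, NR4A2, IER3 and DUSP1) and 1 lower (MYC), with a median of 0.44. FOS, a subunit of the AP-1 factor, measured 86.8 and 91.6 RPKM with shRNA1, 137 and 136 RPKM with shRNA2 and 72.2 and 67.3 RPKM in the control. FOSB, its relative, measured 4.84 and 3.97 RPKM with shRNA1, 8.65 and 7.39 RPKM with shRNA2 and 7.39 and 7.92 RPKM in the control. These differed by 0.61 (SE 0.12, adjusted p = 0.0159) and 0.80 (SE 0.15, adjusted p = 0.0124), with shRNA2 above the control for FOS and level with it for FOSB. Calls among cytokines numbered 4, 3, 3 and 3 without shRNA1 A, shRNA1 B, shRNA2 A and shRNA2 B, and those among immediate early genes 1, 0, 2 and 2. CCL2, TNF and SPP1 were called in each run.

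Lysosomal genes were higher in 10 of 46 cases and lower in 1, with a median of 0.21. CTSB, the cysteine protease cathepsin B, measured 11.3 and 10.4 RPKM with shRNA1, 31.6 and 28.7 RPKM with shRNA2 and 11.7 RPKM in each control library. ATP6V0C, the ring subunit of the proton pump, measured 37.5 and 30.6 RPKM with shRNA1, 84.3 and 78.3 RPKM with shRNA2 and 70.6 and 63.0 RPKM in the control. CTSB was set apart by its shRNA2 pair and ATP6V0C by its low shRNA1 pair, with differences of 1.43 (SE 0.12, adjusted p = 0.000905) and 1.25 (SE 0.14, adjusted p = 0.00181). ATP6V1F, described above and not in the list, belongs to the same pump and lay in the opposite direction. SCARB2, the receptor that carries glucocerebrosidase to lysosomes, was the lower gene of the list, at 10.5 and 12.6 RPKM with shRNA1 and 4.64 and 4.54 RPKM with shRNA2. HEXA, TPP1, NPC2, SMPD1, NAGLU and GRN, enzymes and other soluble proteins of the lysosome, were higher by 0.53 to 0.93. CTSB, ATP6V0C and SCARB2 were called without each library, while calls in the list numbered 3, 3, 4 and 5 without shRNA1 A, shRNA1 B, shRNA2 A and shRNA2 B.

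Histone genes were higher in 6 of 19 cases and lower in 0. Unadjusted p was under 0.05 for 7 higher and 0 lower genes, limma-voom gave 5 higher and 0 lower calls, and the median was 0.28. H2AFJ, a histone H2A variant, measured 1.86 and 1.71 RPKM with shRNA1, 5.33 and 4.93 RPKM with shRNA2 and 5.40 and 4.20 RPKM in the control, a difference of 1.3 (SE 0.16, adjusted p = 0.0026). HIST1H1C, a linker histone, measured 6.43 and 7.57 RPKM with shRNA1, 14.5 and 14.8 RPKM with shRNA2 and 7.71 and 4.92 RPKM in the control. In H2AFJ the shRNA1 pair stood apart and in HIST1H1C the shRNA2 pair. Calls numbered 2, 2, 2 and 3 without shRNA1 A, shRNA1 B, shRNA2 A and shRNA2 B, and H2AFX and H2AFJ were among them each time.

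Genes of growth and ribosome production were called in the lower direction. MYC, the transcription factor that drives ribosome and nucleotide synthesis, was graded, at 203 and 240 RPKM in the control, 138 and 127 RPKM with shRNA1 and 57.4 and 68.7 RPKM with shRNA2. The 3 groups did not overlap and kept the order of TAZ, with a difference between hairpins of -1.07 (SE 0.15, adjusted p = 0.00428; 0.0617 without shRNA1 A and 0.0519 without shRNA1 B). In the MYC and MAX network, which includes some MYC targets, 4 of 17 genes were lower (MYC, MXI1, PPAT and SRM) and 0 higher, with a median of -0.22; 7 lower and 2 higher had an unadjusted p under 0.05, and limma-voom called 4 lower and 1 higher. PPAT, which starts purine synthesis, measured 18.5 and 17.6 RPKM with shRNA1 and 11 and 9.18 RPKM with shRNA2, against 19.5 and 23.5 RPKM in the control. Of 46 ribosome biogenesis genes 8 were lower and 0 higher, the median was -0.31, and 45 of the 46 values were below 0. Over all 10660 genes tested 5204 values were above 0. Genes of a list can vary together, so the count of signs is a description. The 8 were WDR43, POLR1E, POLR1B, RRP1, HEATR1, PES1, NOP16 and RRP9, with differences between -0.49 and -0.83. POLR1E, a subunit of RNA polymerase I, measured 29.1 and 27.9 RPKM with shRNA1, 20.5 and 17.3 RPKM with shRNA2 and 32.6 and 34.2 RPKM in the control. Unadjusted p was under 0.05 for 27 lower and 0 higher biogenesis genes, and limma-voom called 8 lower and 0 higher. Removal of the length trend gave 17 lower and 0 higher, against 981 lower and 822 higher of all 10660 genes tested. The 8 calls fell to 0 without shRNA1 A, 0 without shRNA1 B, 2 without shRNA2 A and 0 without shRNA2 B, and those of the MYC network to 0, 0, 2 and 2. Of 75 cytosolic ribosomal protein genes limma called 0 in either direction, 0 had an unadjusted p under 0.05, limma-voom called 0, and the median was 0.0. With the length trend removed, 1 of these genes was called higher and 8 lower, against 822 higher and 981 lower of all 10660 genes tested.

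CDC25A, the phosphatase that opens entry into S phase, was the gene most different in the G1/S list, at 19.7 and 16.8 RPKM with shRNA1, 6.73 and 6.67 RPKM with shRNA2 and 23.4 and 23.2 RPKM in the control (difference -1.38, SE 0.12, adjusted p = 0.00102). MCM3, a subunit of the replicative helicase, had the opposite sign at 1.07 (SE 0.14, adjusted p = 0.00318; 0.0566 without shRNA1 B), with shRNA1 the lowest group at 51.9 and 48.5 RPKM. Of 44 G1/S and replication genes 4 were higher and 3 lower, against 4.78% and 6.1% of all genes tested, with a median of -0.11. Of 38 G2/M and mitosis genes 3 were higher (KIF23, MYBL2 and CENPE) and 0 lower, against 4.78% of all genes tested called higher, with a median of 0.09 (0.02 without shRNA2 A). In that list limma-voom called 3 higher and 0 lower. Unadjusted p was under 0.05 for 1 lower and 6 higher genes, a count that includes the 3 limma calls. Each of those 3 lost its call without any 1 hairpin library, with adjusted p up to 0.299. In the G1/S list 2, 1, 2 and 3 genes were called without shRNA1 A, shRNA1 B, shRNA2 A and shRNA2 B.

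Of 16 amino acid transporters 4 were lower with shRNA2 and 0 higher, with a median of -0.36. SLC38A5, a glutamine carrier, measured 30.2 and 28.4 RPKM with shRNA1, 16.2 and 12.9 RPKM with shRNA2 and 43.0 and 41.4 RPKM in the control, a difference of -0.99 (SE 0.14, adjusted p = 0.00421; 0.0558 without shRNA1 A). SLC43A3, a purine base carrier, measured 105 and 103 RPKM with shRNA1, 56.5 and 50.9 RPKM with shRNA2 and 69.7 and 66.0 RPKM in the control, a difference of -0.95 (SE 0.12, adjusted p = 0.00316). So SLC38A5 was graded, whereas SLC43A3 was highest with shRNA1. Of 17 serine and one-carbon genes 3 were lower, ALDH18A1 and MTHFD2 among them, and 0 higher, with a median of -0.34. MTHFD2, the mitochondrial folate enzyme, measured 120 and 130 RPKM with shRNA1 and 60.1 and 47.4 RPKM with shRNA2. Its control libraries were far apart, at 127 and 254 RPKM, and its call (adjusted p = 0.0298) was lost with robust empirical Bayes. Glycolysis and hypoxia genes were lower in 4 of 27 cases (HK2, HK1, PDK1 and VEGFA) and higher in 0, with a median of -0.22. HK2, the inducible hexokinase, measured 19.5 and 17.3 RPKM with shRNA1 and 9.38 and 9.53 RPKM with shRNA2, against 22.8 and 19.3 RPKM in the control (difference -0.92, SE 0.13, adjusted p = 0.00472; 0.065 without shRNA1 A). Of 25 ATF4 stress genes 1 was lower, VEGFA, and 0 higher, with a median of 0.08 (-0.17 without shRNA2 A). Among all genes tested 6.1% were called lower and 4.78% higher. With the 4 hairpin libraries alone limma called 3 ATF4 genes higher and 5 lower, against 715 higher and 896 lower of all 10660 genes tested. In these 4 lists, in the order named, an unadjusted p under 0.05 was found for 6, 6, 5 and 5 lower and 1, 0, 2 and 4 higher genes, and limma-voom called 6, 4, 4 and 1 lower and 0, 0, 1 and 0 higher. Calls without shRNA1 A, shRNA1 B, shRNA2 A and shRNA2 B numbered 1, 2, 2 and 2 among the transporters, 0, 0, 0 and 0 among one-carbon genes, 0, 1, 1 and 2 among glycolysis genes and 0 in each run among ATF4 genes.

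Of 24 cholesterol synthesis genes 3 were lower (FDFT1, SC5D and SQLE), 0 were higher and 2 values were above 0, with a median of -0.47. Among all 10660 genes tested 5204 values were above 0. The list had 1 call with median centring, 1 with no filter and 11 with the 4 hairpin libraries alone, all of them lower. With those 4 libraries 896 of all 10660 genes tested were called lower. Against the control, which both values share, the list's median was 0.23 with shRNA1 and -0.26 with shRNA2. SQLE, the squalene epoxidase, measured 98.2 and 99.4 RPKM with shRNA1, 51.0 and 48.6 RPKM with shRNA2 and 80.7 and 41.1 RPKM in the control. One control library lay between the hairpins for SQLE and the other below both, and the difference was -0.98 (SE 0.26, adjusted p = 0.0473). INSIG1, which retains the sterol-regulated factor SREBP in the endoplasmic reticulum, had a larger difference of -1.17 (SE 0.33) that did not pass (adjusted p = 0.0557). Of 21 fatty acid synthesis genes 4 were lower (ELOVL6, ME1, FASN and ACLY) and 0 higher, with a median of -0.35. ELOVL6, an elongase of saturated fatty acids, measured 25.0 and 28.7 RPKM with shRNA1, 14.7 and 13.8 RPKM with shRNA2 and 20.1 and 16 RPKM in the control, a difference of -0.89 (SE 0.14, adjusted p = 0.00796). FASN, the fatty acid synthase, measured 34.7 and 43.1 RPKM with shRNA1, 15.9 and 25.0 RPKM with shRNA2 and 29.8 and 24.4 RPKM in the control, a difference of -0.94 (SE 0.22, adjusted p = 0.0285). CPT1A, which joins long-chain acyl groups to carnitine for oxidation in mitochondria, was lower too, by -0.61 (SE 0.13, adjusted p = 0.0228). Its call was lost with 1 hairpin library left out. Unadjusted p was under 0.05 for 6 lower and 0 higher cholesterol genes and for 9 lower and 1 higher fatty acid genes. Over all 10660 genes tested it was under 0.05 for 2802, in either direction. limma-voom called 5 and 6 lower and 0 higher in these lists. Left out singly, shRNA1 A, shRNA1 B, shRNA2 A and shRNA2 B gave 0, 0, 0 and 0 calls among cholesterol genes and 0, 0, 1 and 2 among fatty acid genes.

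**Figure D4:**
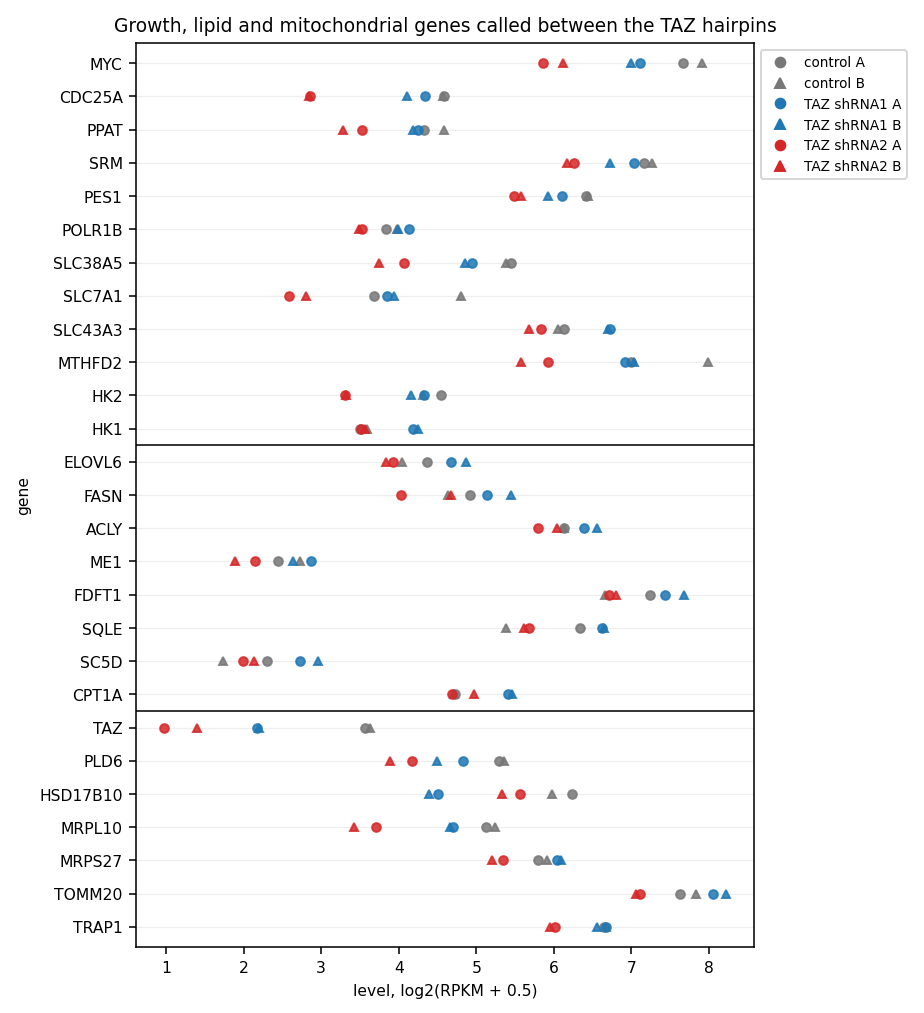
Levels as log2(RPKM + 0.5) in the 6 libraries of called genes of growth (upper block), lipid metabolism (middle block) and mitochondria (lower block); circles are library A and triangles library B. MYC, TAZ and PLD6 are graded from control through shRNA1 to shRNA2, while FDFT1 and CPT1A have shRNA1 to the right of the other groups. TAZ is shown as the target, as a description without a test.

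Mitochondrial lists in the main fit are read against the 10.9% of all genes tested that were called. Of 19 cardiolipin genes tested, HSD17B10 was called higher with shRNA2 and PLD6 lower, with a median of 0.10. TAZ is in this list as well, but its lower level is a description and does not count as a call. HSD17B10, a mitochondrial dehydrogenase that also serves in RNase P, measured 22.3 and 20.5 RPKM with shRNA1, 47.0 and 39.7 RPKM with shRNA2 and 74.9 and 62.6 RPKM in the control. PLD6, which cleaves cardiolipin on the outer membrane, measured 28.0 and 22.0 RPKM with shRNA1, 17.5 and 14.3 RPKM with shRNA2 and 38.6 and 40.5 RPKM in the control. HSD17B10 was thus lowest with shRNA1 and PLD6 lowest with shRNA2. The differences were 1.0 (SE 0.14, adjusted p = 0.00472; 0.0675 without shRNA1 B) and -0.63 (SE 0.15, adjusted p = 0.0363; up to 0.281 without 1 hairpin library). Among 20 genes of phosphatidylethanolamine and phosphatidylserine, PLSCR1, a scramblase that is also interferon stimulated, was the 1 call, at 0.65 (adjusted p up to 0.146 without 1 hairpin library). Of 76 mitochondrial ribosomal protein genes, MRPL10 was lower by -1.11 (SE 0.13, adjusted p = 0.00239) and MRPS27 by -0.79 (SE 0.12, adjusted p = 0.00641; up to 0.0878), while the median was -0.02. MRPL10 measured 25.4 and 24.8 RPKM with shRNA1, 12.5 and 10.2 RPKM with shRNA2 and 34.4 and 37.3 RPKM in the control. Of 41 import, chaperone and protease genes TOMM20, a receptor of the outer membrane import channel, was lower by -1.04 (SE 0.14, adjusted p = 0.00386; 0.0696 without shRNA1 B) and TRAP1, a mitochondrial chaperone, by -0.64 (adjusted p = 0.0138; up to 0.155). With the length trend removed 8 mitochondrial ribosomal and 6 import genes were called, each of them lower. In that setting 822 of all 10660 genes tested were called higher and 981 lower. Respiratory chain genes gave no calls with limma in 37 genes of complex I or 38 of complexes II to V. With the library letter as a replicate block limma called 3 and 4 higher, against 1102 higher of all 10660 genes tested. With the length trend removed 1 gene was called higher in each of these 2 lists. In them 3 and 3 genes were higher and 0 and 0 lower with an unadjusted p under 0.05, limma-voom called 1 and 0 higher, and the medians were 0.08 (-0.11 without shRNA2 A) and 0.22 (0.0 without shRNA2 A).

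**Figure D5:**
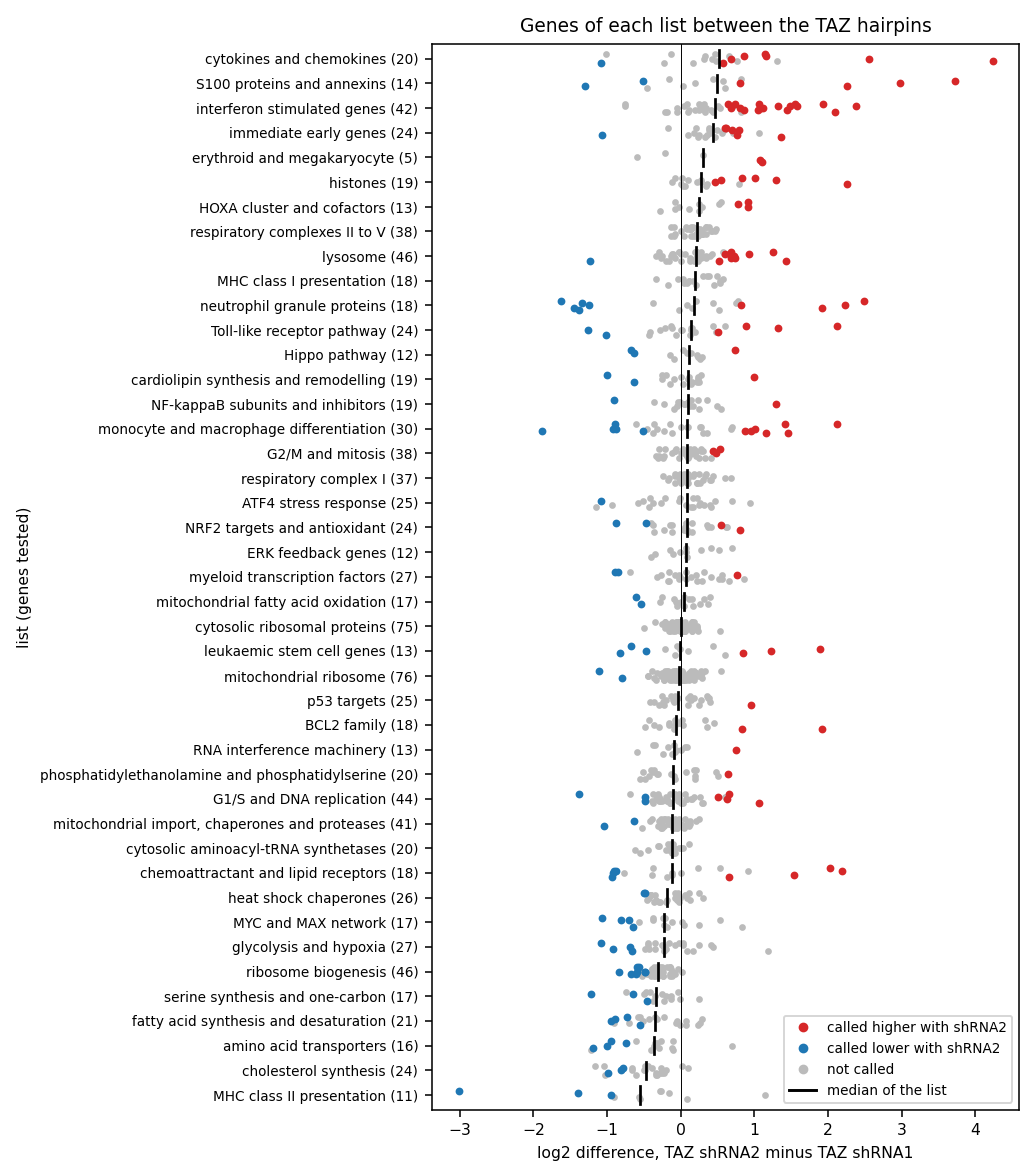
Log2 differences, shRNA2 minus shRNA1, of the genes tested in each list, ordered by the list's median (black bar), with called genes in red (higher) and blue (lower). Cytokines, S100 proteins and annexins and interferon stimulated genes have the highest medians at 0.52, 0.50 (0.20 without shRNA2 A) and 0.47, and MHC class II presentation and cholesterol synthesis the lowest at -0.55 and -0.47.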

How the data were processed

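Total RNA of 6 OCI-AML2 libraries, 2 per group, was sequenced. The authors deposited 1 table per TAZ hairpin with RPKM, per the file headers, and the tables were joined by symbol and gene ID. The control values of the tables were identical, 0 columns stayed unmatched and 2 repeated rows were dropped, which left 13002 genes. Per the submitters' processing notes, HTSeq 0.6.1p2, DESeq 1.18.0, edgeR 3.8.6, TopHat2 2.0.11, Trim Galore 0.4.0 and build hg19 were used, with roles not stated. The strand setting of the counting is not given in the sources used here, so overlapping antisense genes may share reads, and near-identical paralogs (histone, HLA, IFITM, ribosomal protein genes) are uncertain. The deposited average log2 CPM, from the authors, scaled 596 genes in the recovery of whole reads (95.4% of genes came out whole within 0.05 reads). The deposited log2 fold changes, likelihood-ratio scores and p-values of the authors were not used for any result.

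Values were taken as log2(RPKM + 0.5), which understates the differences of low genes. Genes whose mean over all 6 libraries reached 1 RPKM were fitted with limma 3.58.1 (R 4.3.3) in 3 groups with a prior variance trend and 3 residual degrees of freedom, two-sided, with Benjamini-Hochberg adjustment over all genes tested and a threshold of 0.05. The script was tested on simulated data. Every adjusted p is limma's. Named genes are TAZ, the 15 most higher and 15 most lower called genes whose libraries do not overlap, up to 4 members per list by smallest p, and further called list members named after their values were seen. The 43 lists and 6 marker lists, like the comparison itself, were chosen with earlier results of these data known. Promoters are from RefSeq (GRCh38.p14). Alternatives covered the pseudocount, filter, normalization, samples in the fit, the replicate letter and each library left out. Some single genes are not reported here.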

Additional observations from a re-analysis of the deposited data

How the results depend on the processing

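The calls between the hairpins depend most on single hairpin libraries. With 1 library left out, the number of genes called higher with shRNA2 ranged from 72 (without shRNA1 B) to 720 (without control B) and the number called lower from 90 to 908, and where a group keeps 1 library that library is assumed to vary like the others. The log2 difference of TAZ ranged from -1.21 without shRNA2 B to -0.8 without shRNA2 A. Of the 1160 called genes, 213, 161, 415 and 434 were called without shRNA1 A, shRNA1 B, shRNA2 A and shRNA2 B. A filter at 5 RPKM gave 339 higher and 477 lower of 7541 tested, a smaller set by construction. Removing the trend of the difference on gene length (Spearman rho -0.13 across 10660 genes) gave 822 and 981, limma-voom on recovered reads 562 and 733, and the 4 hairpin libraries alone 715 and 896, and the cause of these gains was not tested. With the library letter as a replicate block 1102 were higher and 1294 lower. The respiratory lists, which gave no calls in the main fit, then had 3 (complex I) and 4 (complexes II to V) higher. The letters are only a shared number in the labels; deviations of the A libraries from their group means correlated across genes at r = 0.367 between the hairpins, 0.26 between control and shRNA1 and 0.423 between control and shRNA2, a hint of pairing from the data and not from the design. The other pseudocounts, no filter, robust empirical Bayes, quantile normalization and median centring kept both counts within 1.5 times. No named gene changed sign under an alternative in which it was called, or from a main fit in which it was called. A planned edgeR fit was not run, because the deposited values are RPKM. Depth limits low genes: TAZ itself rests on 55 and 82 reads with shRNA2.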

Other observations

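HOXA genes, homeobox factors of early blood progenitors, and their cofactors were higher with shRNA2 in 3 of 13 genes tested and lower in 0, with a median log2 difference of 0.25. Among all genes tested 4.78% were called higher and 6.1% lower. Unadjusted p was under 0.05 for 4 higher and 0 lower, and limma-voom called 4 higher. HOXA7 measured 4.89 and 5.53 RPKM with shRNA1, 9.55 and 11.1 RPKM with shRNA2 and 5.08 and 5.14 RPKM in the control, so the shRNA2 pair stood alone (difference 0.92, SE 0.14, limma adjusted p = 0.00548; 0.072 without shRNA1 A). HOXA5 measured 6.97 and 6.49 RPKM with shRNA1 and 13.4 and 12.8 RPKM with shRNA2, against 7.22 and 7.44 RPKM in the control (0.91, SE 0.12, limma adjusted p = 0.00342; 0.0594 without shRNA1 B). MEN1, which encodes menin, a chromatin partner of MLL proteins, was instead low with shRNA1, at 9.78 and 8.04 RPKM against 15.4 and 15.9 RPKM with shRNA2 and 17.0 and 17.3 RPKM in the control.

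Among genes used to describe leukaemic stem cells, 3 of 13 were higher (AKR1C3, MMRN1 and EMP1) and 3 lower (CD44, CLEC12A and CD33). CD44, the hyaluronan receptor, measured 54.0 and 52.9 RPKM with shRNA1, 32.7 and 27.7 RPKM with shRNA2 and 69.9 and 59.9 RPKM in the control, which is the order of TAZ (difference -0.82, SE 0.14, limma adjusted p = 0.00864; up to 0.0919 without 1 library). MMRN1, multimerin, ran the opposite way at 12 and 12.1 RPKM in the control, 16.5 and 21.9 RPKM with shRNA1 and 34.4 and 34.8 RPKM with shRNA2 (0.85, SE 0.15, limma adjusted p = 0.01; up to 0.101). BCL2A1, a short-lived anti-apoptotic protein, was low with shRNA1 at 11 and 10.1 RPKM, against 50.1 and 34.4 RPKM with shRNA2 and 48.2 and 25.3 RPKM in the control (1.92, SE 0.28, limma adjusted p = 0.00528; 0.058 without shRNA1 B). In the Hippo pathway, whose factor WWTR1 shares the alias TAZ with tafazzin, YAP1 was higher (limma adjusted p = 0.0322) and AMOTL1 (0.023) and TEAD4 (0.0308) lower among 12 genes tested, and the list had 0 calls without each hairpin library in turn. YAP1, like EMP1 above, passed the filter only through shRNA2. TEAD4 was graded at 18.5 and 21.7 RPKM in the control, 14.9 and 12.6 RPKM with shRNA1 and 9.46 and 7.90 RPKM with shRNA2. Of 13 RNA interference genes 1 was higher, TNRC6C, at 0.75 (limma adjusted p = 0.0322), a call lost with 1 hairpin library left out. Of 25 p53 targets 1 was higher, TP53I3, at 0.96. With 4.78% of all genes tested called higher, 1 call is no result about a list of this size.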
